A study of Mus musculus with 6 samples.

Results

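The stromal spots of the DES sections are the Visium spots that the authors' clustering placed in Cluster 4 of section DES A and in Cluster 5 of section DES B, and they were set against all other spots of the same section. There were 343 such spots, 211 in DES A and 132 in DES B, of the 2932 spots of both DES sections (11.7%) and of the 6199 spots of all 4 sections of the series. A Visium spot is a small printed area that captures the RNA of the tissue above it, so that a spot can hold several cells of different types or part of one. Each DES section came from 1 CD-1 mouse that was given 1 mg/kg/day of diethylstilbestrol (DES), a synthetic estrogen, on days 1 to 5 after birth and whose uterus was collected at 12 months of age. The CO sections, CO A and CO B, each came from 1 CD-1 mouse of the same age given corn oil on the same days, and their stromal clusters (Cluster 8 of CO A, 101 spots, and Cluster 6 of CO B, 188 spots) entered only to share the estimate of spread and to show where the DES sections differed. By the study's methods the CO mice were in estrus and the DES mice in persistent estrus, and the tissue blocks were trimmed to fit 1 slide. The DES sections were examined for adenocarcinoma, and the study describes cancer regions in the DES sample. It also reports that CO B had a fold in the tissue and that clusters were harder to identify in DES B. For these reasons it based most of its work on 1 section per group.

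The endometrial stroma is the connective tissue beneath the uterine epithelium. Its fibroblasts lay down fibrillar collagens, beaded collagen VI filaments, elastic microfibrils and the small proteoglycans that space the fibrils, and they send Wnt, BMP and IGF signals to the epithelium while answering estrogen and progesterone through receptors of their own. The tissue between the fibroblasts holds vessels with pericytes, macrophages and, in the inflamed uterus, plasma cells, and it borders the smooth muscle of the myometrium.

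The stromal spots of DES A held 1015381 unique molecular identifiers (UMIs, each standing for 1 captured RNA molecule), with a median of 4360 per spot, against 8101718 in the other spots. In DES B they held 346412 UMIs with a median of 2216 per spot, against 9533609 in the other spots, and 73 of the 132 spots reached 2000 UMIs. UMIs were added up over each region and are given as CPM, counts per 1000000 UMIs of that region, so that each value compares shares of the RNA captured, not amounts per cell. The stromal cluster of DES B stood apart from that of DES A: immunoglobulin genes took 7.62% of its UMIs against 1.67% in DES A, and its smooth muscle markers summed to 7829 CPM against 2562. The genes described in most detail are therefore given for each section, and a log2 difference that stands alone is that of the joint fit of both sections. Mitochondrial genes took 0.83% and 0.91% of stromal UMIs in DES A and DES B, against 0.911% and 1.07% in the other spots.

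The markers used to describe the label were Col1a1, a chain of the main fibrillar collagen, Mfap5, a microfibril glycoprotein, and Dpt (dermatopontin), a small matrix protein that binds decorin. The clusters were drawn from the same counts, so the marker levels are no independent check of the label. Col1a1 (chromosome 11, 94936224 to 94953042, plus strand, ENSMUSG00000001506.10 in GRCm38) was at 2941 CPM in the stromal spots of DES A against 712 in its other spots, and at 1764 against 496 in DES B. Mfap5 (chromosome 6, 122505845 to 122529290, plus strand, ENSMUSG00000030116.14) was at 396 against 87.8 CPM in DES A and at 214 against 50.8 in DES B. Dpt (chromosome 1, 164796644 to 164824266, plus strand, ENSMUSG00000026574.5) was at 247 against 93.4 CPM and at 248 against 83.9. Each marker was higher in the stromal spots of both sections, and Mfap5 was highest of the 10 clusters in both. The 3 markers summed to 3584 CPM in Cluster 4 of DES A, the highest of its 10 clusters. In DES B they summed to 2226 CPM in Cluster 5, below the 3159 CPM of Cluster 9, a region of 47 spots that also held 4274 CPM of smooth muscle markers. Col1a1, the most abundant of the 3, dominates this sum. Taken one at a time, Cluster 5 ranked 2 of 10 for Col1a1, 1 for Mfap5 and 4 for Dpt, and Cluster 4 of DES A ranked 1, 1 and 5. In single spots the 3 markers took a median of 0.315% of UMIs in DES A and 0.177% in DES B, against 0.0783% and 0.0482% in the other spots, and 2 stromal spots of DES A and 19 of DES B held none of them.

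**Figure D1:**
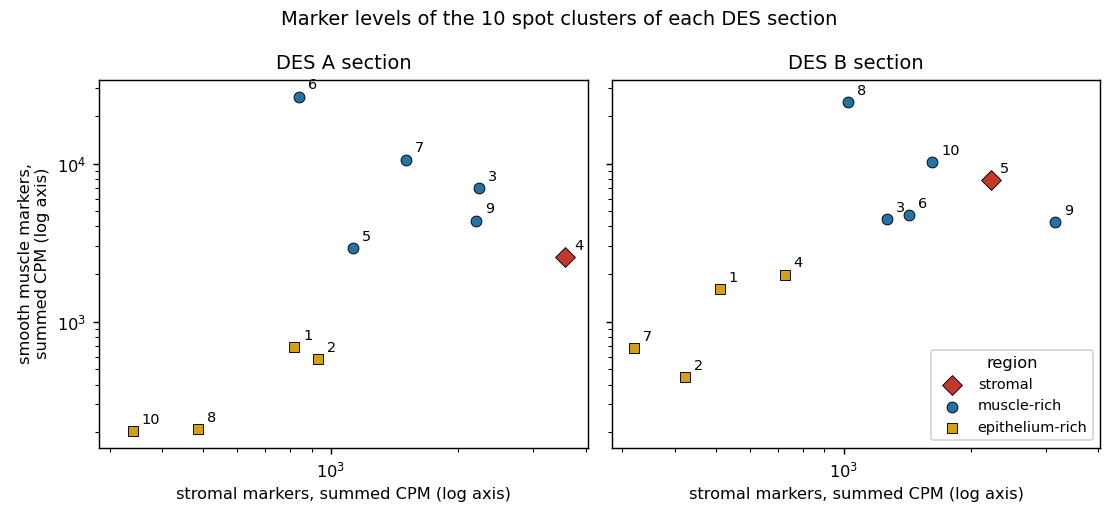
Summed CPM of the smooth muscle markers Myh11, Acta2, Des and Cnn1 (vertical, log axis) against that of the stromal markers Col1a1, Mfap5 and Dpt (horizontal, log axis) in the 10 spot clusters of DES A and of DES B, each cluster 1 point with its number, red diamonds for stromal, blue circles for muscle-rich and gold squares for epithelium-rich clusters. Cluster 4 of DES A lies farthest to the right at 3584 CPM of stromal markers, whereas Cluster 5 of DES B at 2226 CPM lies to the left of Cluster 9 at 3159 CPM and, with 7829 CPM of smooth muscle markers, above Cluster 4 of DES A at 2562 CPM.

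Markers of other cell types were present in the stromal spots too. Epithelial markers (Krt8, Krt18, Epcam, Cdh1 and Wfdc2) summed to 1974 CPM in DES A and 1389 in DES B, basal cell markers (Krt14, Krt5 and Trp63) to 7058 and 1998, and macrophage markers (Cd68, Adgre1, C1qa and Csf1r) to 1012 and 661. Plasma cell markers (Jchain, Mzb1, Igkc and Ighm) summed to 7938 CPM in DES A and 39748 in DES B. Endothelial markers reached 74.8 and 217 CPM, pericyte markers 266 and 361 and adipocyte markers 14.8 and 0. Mesothelial markers were at 59.1 and 89.5 CPM, T cell markers at 24.6 and 60.6, and eosinophil markers, nearly all Prg2, at 107 and 254. The marker sums of epithelium, basal cells and macrophages were thus higher in the DES A stroma, and those of muscle, plasma cells and vessels higher in the DES B stroma.

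Against all other spots of their section, 970 of 13542 genes tested were higher (7.16%) and 766 lower (5.66%) in the DES stromal spots at an adjusted p under 0.05 in edgeR's quasi-likelihood test with the section as block. Of these, 964 were higher and 762 lower in both sections, as were 4329 and 5247 of all 13542 genes tested. The calls came from the joint fit of both sections, so this agreement is no replication. Because the authors drew the clusters from the same counts, these calls describe the clusters and are no test of them; the same holds for each count of genes called and each log2 difference below. Without DES B the counts were 579 and 326, and without DES A 747 and 750. Fewer cells of a type and less RNA per cell cannot be told apart in such sums. The other spots were mainly epithelium: clusters rich in epithelial markers held 73.1% of the UMIs of DES A and 76.0% of those of DES B. The stromal spots were therefore also set against the muscle-rich clusters (683 spots in DES A and 497 in DES B) and the epithelium-rich clusters (681 and 728 spots) one at a time. Some muscle-rich clusters were mixed. Cluster 3 of DES B, with 1100229 of the 2020407 muscle-rich UMIs of that section, held 4453 CPM of smooth muscle markers, below the 7829 CPM of the stromal cluster, and also 3106 CPM of epithelial and 5039 CPM of basal markers. Cluster 5 of DES A held 2908 CPM of smooth muscle, 3221 of epithelial and 12677 of basal markers. Every value against muscle-rich spots is thus against a mixture, which in DES B also included Cluster 9, the cluster with the most stromal markers.

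Most collagens were higher. Of 28 collagens tested (29 listed), 20 were called higher and 1 lower, with a median log2 difference of 1.69 against -0.04 over all genes tested. Col1a2, the partner chain of Col1a1, was at 4189.6 against 1045 CPM in DES A and 2413 against 739.6 in DES B (log2 difference 1.94 ± 0.17). Here and in the brackets that follow, ± is an approximate standard error. It is the absolute log2 difference divided by the square root of the F statistic of edgeR's quasi-likelihood test. Col3a1, the fibrillar collagen of pliable tissue, was at 1798 against 511 CPM and 1709 against 489.6 (1.90 ± 0.16). Both sections gave close to the same ratio for these chains, and Col1a1 itself differed by 2.03 ± 0.17. Among collagen VI chains, Col6a4 was at 2450.3 against 608 CPM in DES A and 1865 against 466 in DES B (2.09 ± 0.17). Col6a3 was at 1194 against 386 and 808 against 275 (1.68 ± 0.21). Both ranked 1 of 10 clusters in each section, as did Col6a6 (2.04 ± 0.25), Col8a2 (2.33 ± 0.36) and Col18a1 (1.49 ± 0.19). The basement membrane chains Col4a1 (1.86 ± 0.19) and Col4a2 (1.64 ± 0.19) were higher too, whereas Col4a5 (-0.15 ± 0.38) and Col4a6 (0.25 ± 0.36) were not called. The 1 collagen called lower was Col17a1, the transmembrane collagen of basal epithelium, at 165 against 252 CPM in DES A and 52.0 against 180.2 in DES B (-0.92 ± 0.23). Col6a5 was called (2.96 ± 0.87) on 11 stromal UMIs in DES A and 0 in DES B, and its difference was -5.60 without DES A.

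Elastic fibre and microfibril genes followed the same direction, with 14 of 23 tested called higher, 0 lower and a median of 1.17. Mfap4, a microfibril-associated protein, was at 1103 against 226 CPM in DES A and 539.8 against 143 in DES B (2.20 ± 0.20). Lox, the enzyme that cross-links collagen and elastin, was at 368 against 94.2 and 124 against 50.0 (1.78 ± 0.23). Lox was thus lower in the DES B stroma than in the DES A stroma, while Eln, elastin itself, was at 143 against 45.4 CPM in DES A and 165 against 50.7 in DES B (1.76 ± 0.21). The latent TGF-beta binding genes Ltbp1 (0.03 ± 0.20) and Ltbp2 (-0.57 ± 0.22) were not called, and Ltbp3 (0.85 ± 0.19) and Ltbp4 (0.67 ± 0.17) were.

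Of 11 small leucine-rich proteoglycans tested (13 listed), 8 were called higher and 1 lower (median 1.47), and 5 and 1 without DES A. Decorin (Dcn), which binds and spaces collagen fibrils, was at 1249 against 394 CPM in DES A and 817 against 333 in DES B (1.57 ± 0.17). Lumican (Lum) was at 503 against 184 CPM and 658 against 189 (1.71 ± 0.18). These proteoglycans did not single out the stromal cluster: Dcn ranked 3 and 4 of 10 and Lum 5 and 4, and the muscle-rich spots held 1001 and 924 CPM of Dcn. Chad (chondroadherin) was lower, at 68.0 against 118 CPM and 31.8 against 139 (-1.13 ± 0.25).

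Of 25 matricellular and adhesive matrix genes, 16 were called higher and 2 lower (median 1.45). Sparc, a collagen-binding glycoprotein, was at 1933 against 565 CPM in DES A and 1389 against 444 in DES B (1.80 ± 0.17). Tenascin-C (Tnc), made in remodelling tissue, was at 104 against 27.8 CPM and 28.9 against 17.7 (1.63 ± 0.30), a wider gap in DES A. Spon1, Nid1, Thbs2 and Matn2 were higher by 1.96 ± 0.24, 1.65 ± 0.25, 1.52 ± 0.26 and 1.67 ± 0.21. The genes called lower were Spp1 (osteopontin), at 191 against 608 CPM and 11.5 against 132 (-1.93 ± 0.30), and Postn (periostin), at 127 against 323 and 43.3 against 89.1 (-1.18 ± 0.27).

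Genes that shape the matrix were higher as well: 19 of 31 matrix proteases and inhibitors were called higher and 2 lower (median 1.06). Mmp2, a gelatinase of fibroblasts, was at 597 against 174 CPM in DES A and 306 against 109 in DES B (1.73 ± 0.19). Mmp11, a stromal metalloproteinase, was at 218 against 61.1 and 156 against 62.8 (1.69 ± 0.20). The collagen chaperone Serpinh1 (1.45 ± 0.18), the procollagen processing genes Pcolce (1.39 ± 0.21) and Bmp1 (1.43 ± 0.20), the inhibitor Timp2 (1.04 ± 0.18) and cathepsin K, Ctsk (1.68 ± 0.20), were higher in the same way. Mmp12, the macrophage elastase, was lower at 58.1 against 195 CPM and 5.77 against 32.2 (-1.75 ± 0.29), as was Pcolce2 (-1.25 ± 0.30).

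**Figure D2:**
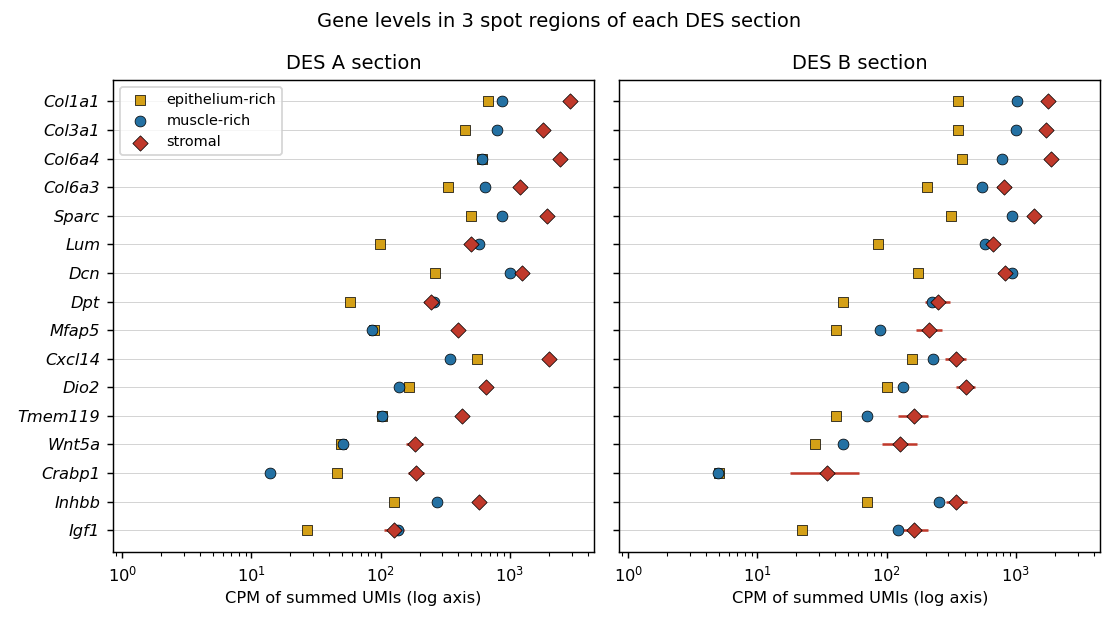
CPM (horizontal, log axis) of 16 genes (vertical) in the stromal (red), muscle-rich (blue) and epithelium-rich (gold) spots of DES A and DES B, with horizontal lines for the exact Poisson 95% interval of the stromal value, which covers counting error only. Col1a1, Col6a4, Mfap5 and Dio2 have their highest point in the stromal spots of both sections, whereas for Dpt, Dcn and Lum the muscle-rich point lies beside the stromal one (Dpt at 259 and 225 CPM in muscle-rich spots against 247 and 248).

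Wnt pathway genes were more often higher than lower in these spots. Of 34 genes tested among Wnt ligands, R-spondins, antagonists and targets, 11 were called higher and 2 lower (median 0.56). Wnt5a, the noncanonical ligand of uterine stroma, was at 183 against 49.4 CPM in DES A and 127 against 31.5 in DES B (2.02 ± 0.21). The secreted Wnt antagonist Sfrp2 was at 119 against 23.5 CPM and 40.4 against 19.4 (2.01 ± 0.28). Sfrp4, of the same family, was at 57.1 against 22.3 CPM and 144 against 26.7 (1.96 ± 0.29). Sfrp2 was thus higher in the DES A stroma and Sfrp4 in the DES B stroma. Axin2, a common target of canonical Wnt signaling, was at 31.5 against 12.3 CPM and 31.8 against 12.7 (1.42 ± 0.34). Dkk2 (1.68 ± 0.22), Frzb (1.77 ± 0.24) and Rspo1 (1.85 ± 0.28), of which Dkk2 and Frzb are antagonists and Rspo1 an amplifier of the signal, were higher too. The genes called lower were Lgr4, an R-spondin receptor (-1.06 ± 0.27), and Wnt7b, an epithelial ligand (-0.73 ± 0.23).

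Among 46 members of the list of growth factors, BMP, TGF-beta, FGF, hedgehog and IGF genes, 20 were called higher and 1 lower (median 1.21), and 13 higher and 0 lower without DES A. Inhbb, the beta B subunit of activins and inhibins, was at 575 against 153 CPM in DES A and 346 against 109 in DES B (1.88 ± 0.22). Midkine (Mdk), a heparin-binding growth factor, was at 458 against 133 CPM and 491 against 113 (2.03 ± 0.20). Both ranked 1 of 10 clusters in each section. Gdf10, of the BMP family, was at 97.5 against 25.9 CPM and 92.4 against 13.2 (2.34 ± 0.32). Igf1, which carries the estrogen signal from stroma to epithelium, was at 127 against 46.3 CPM and 162 against 43.3 (1.74 ± 0.24). Gli1, a target of hedgehog signaling, was at 41.4 against 8.15 CPM in DES A (42 UMIs) and 14.4 against 4.09 in DES B (5 UMIs, 95% interval 4.69 to 33.7 CPM). Ptn (pleiotrophin) was the gene called lower (-0.76 ± 0.23).

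Of 38 steroid receptors and uterine stromal transcription factors tested, 14 were called higher and 3 lower (median 0.72), and 9 and 1 without DES B. The estrogen receptor Esr1 was at 273 against 225 CPM in DES A and 289 against 230.3 in DES B (0.39 ± 0.19). The progesterone receptor Pgr was at 93.6 against 76.7 CPM and 121 against 72.9 (0.56 ± 0.21), and neither receptor was called. Hand2, a progesterone-regulated factor of the uterine stroma, was at 14.8 against 5.06 CPM in DES A and 28.9 against 3.46 in DES B (2.23 ± 0.45). Hoxa10, which patterns the uterus, was at 88.6 against 35.7 and 127 against 31.9 (1.69 ± 0.23), and Hoxa11 differed by 1.51 ± 0.29. Twist2, a mesenchymal factor, differed by 2.09 ± 0.26. The factors called lower were Klf4 (-1.16 ± 0.22), Msx2 (-1.38 ± 0.34) and Meis2 (-0.72 ± 0.24), the first of which is an epithelial factor.

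Dio2, Crabp1, Aldh1a2 and Hsd11b2 were picked after their values were seen, from the genes that ranked 1 of 10 clusters in both sections, and stand for no group. Dio2, the deiodinase that activates thyroid hormone, was at 652 against 162 CPM in DES A and 409.9 against 107 in DES B (2.06 ± 0.18). Crabp1, a binding protein for retinoic acid, was at 189 against 40.1 CPM and 34.6 against 5.03 (2.42 ± 0.25), the DES B value resting on 12 UMIs. Aldh1a2, which makes retinoic acid, was at 127 against 34.6 and 115 against 31.6 (1.96 ± 0.25). Hsd11b2, which inactivates glucocorticoids, was at 251 against 58.9 and 176 against 41.6 (2.17 ± 0.21). The stromal cluster ranked 1 of 10 in both sections for 57 of the 970 genes called higher, among them also Ramp3, a partner of the calcitonin-like receptor (851 and 519.6 CPM), the chemokine Cxcl14 (1995 and 341 CPM) and Pth1r, the parathyroid hormone receptor (114 and 147 CPM). Counting each section by itself, it ranked 1 for 197 of the 970 genes in DES A and for 179 in DES B. A call against all other spots itself favours a high rank. The share over all genes tested was not taken, so these rank counts are description only.

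Summed over spots, 10 of the 11 plasma cell genes called were above the other spots, whereas the median stromal spot of DES A was not. Of 19 plasma cell and immunoglobulin genes, 10 were called higher and 1 lower (median 1.52), and the counts were 15 and 1 without DES A, 5 and 3 without DES B and 2 and 0 by DESeq2 with both sections. Igha, the heavy chain of IgA, was at 8276 against 2555 CPM in DES A and 29041 against 4555 in DES B. Jchain, which joins IgA and IgM units, was at 1142 against 415 and 5020.0 against 682. Ighg2c, an IgG heavy chain, was at 405 against 76.2 and 5476 against 275 (3.48 ± 0.30). For each of these the DES B stroma was far above the DES A stroma. Ighm, the IgM heavy chain, was lower in the stromal spots of DES A (71.9 against 231 CPM) and higher in those of DES B (1379.9 against 154). Ighg1 divided the sections in the same way (0.985 against 96.3, and 193 against 8.50). In single stromal spots immunoglobulin genes took a median of 0.0348% of UMIs in DES A, below the 0.0580% of its other spots, and 0.561% in DES B, above the 0.105% of its other spots. The highest stromal spots were at 25.7% and 47.2%. A UMI of a plasma cell marker was found in 58.8% of stromal and 66.1% of other spots of DES A, and in 82.6% and 80.2% in DES B. Immunoglobulin genes share long stretches of sequence, so values of single genes are uncertain.

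Macrophage genes were mixed too. Of 29 macrophage and dendritic genes, 12 were called higher and 3 lower (median 0.52), and the counts were 3 and 4 without DES A, 11 and 1 without DES B and 7 and 2 by DESeq2. C1qa, a complement component of resident macrophages, was at 743 against 328 CPM in DES A and 508 against 272 in DES B (1.13 ± 0.18), and Mrc1, the mannose receptor, differed by 1.90 ± 0.32. Cd14, an endotoxin co-receptor, was lower at 255 against 502 and 133 against 574 (-1.37 ± 0.21). None of 17 T and NK cell genes was called in either direction by edgeR or DESeq2 (median 0.56, 2 at an unadjusted p under 0.05 in edgeR), with 10 of them higher and 1 lower in both sections. Over all 13542 genes tested, 3335 had an unadjusted p under 0.05 in edgeR, and 4329 were higher and 5247 lower in both sections. Of 9 neutrophil genes 1 was called higher and 4 lower (1 and 1 by DESeq2), but the sections ran in opposite directions, with a median log2 ratio of -1.66 and 3 genes above 0 in DES A and of 1.02 and 8 above 0 in DES B. S100a9, a neutrophil alarm protein, was at 25.6 against 186 CPM in DES A but 14.4 against 14.8 in DES B. Without DES A the log2 difference of S100a9 was 0.06 and that of S100a8 was 0.20, where with both sections it was -2.40 ± 0.38 and -2.14 ± 0.43. Prg2, the major basic protein of eosinophils, was at 106 against 16.8 CPM and 254 against 29.4 (2.98 ± 0.28), while other eosinophil markers were at or near 0 in the stromal spots (Epx at 0 and 0 CPM, Siglecf at 0.985 and 0). A UMI of an eosinophil marker was found in 10.9% of stromal and 8.14% of other spots of DES A, and in 13.6% and 9.39% in DES B. Most stromal spots thus held none.

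Chemokines and cytokines lay on both sides. Of 35 tested, 6 were called higher and 8 lower (median -0.43), and 5 and 4 by DESeq2. Cxcl14 was at 1995 against 516 CPM in DES A and 341 against 171 in DES B (1.60 ± 0.20), and Ccl11 (eotaxin), which attracts eosinophils, at 166 against 31.1 and 49.1 against 23.4 (2.05 ± 0.32). Cxcl5, which attracts neutrophils, was lower at 36.4 against 293 and 11.5 against 56.2 (-2.83 ± 0.28), as were Cxcl17 (-1.88 ± 0.25), Ccl6 (-1.87 ± 0.24) and Ccl9 (-1.40 ± 0.39). Of 21 complement genes 9 were called higher and 5 lower, without DES A 4 and 2, and by DESeq2 6 and 3. Of 15 acute inflammation and alarm genes 2 were called higher and 6 lower (0 and 2 without DES A and by DESeq2), among those called lower by edgeR with both sections Il1rn, the interleukin-1 receptor antagonist (1.97 against 23.8 CPM, and 0 against 3.88).

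Most vessel genes were higher in the stromal spots of both sections. This held for 18 of 21 endothelial and 7 of 9 pericyte genes, with 1 of each lower in both. Over all 13542 genes tested, 4329 were higher and 5247 lower in both. Of 21 endothelial genes 12 were called higher and 0 lower (median 1.56; 8 without DES B), and of 9 pericyte genes 7 and 0 (median 1.41). Pecam1, an adhesion protein of endothelium, was at 31.5 against 15.1 CPM in DES A and 72.2 against 16.7 in DES B (1.63 ± 0.30). Pdgfrb, a receptor of pericytes and fibroblasts, was at 128 against 39.5 and 133 against 32.2 (1.93 ± 0.22).

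Most smooth muscle genes were above the other spots in DES B, and fewer were in DES A. Acta2, smooth muscle actin, was at 1381 against 1234 CPM in DES A and 3424 against 1369 in DES B. Myl9, a myosin light chain, was at 1992 against 1330.1 and 4168 against 1480.2. Over 25 smooth muscle genes the median log2 ratio of stromal to other spots was -0.07 in DES A, with 11 genes above 0, and 1.32 in DES B, with 24 above 0. The joint count of 9 called higher and 0 lower was 20 and 0 without DES A and 1 and 2 without DES B. DESeq2 called 5 higher and 0 lower with both sections. The muscle-rich spots were at 5618 CPM of Acta2 in DES A and 4846 in DES B, so that the stromal spots of DES B came closer to them than those of DES A.

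**Figure D3:**
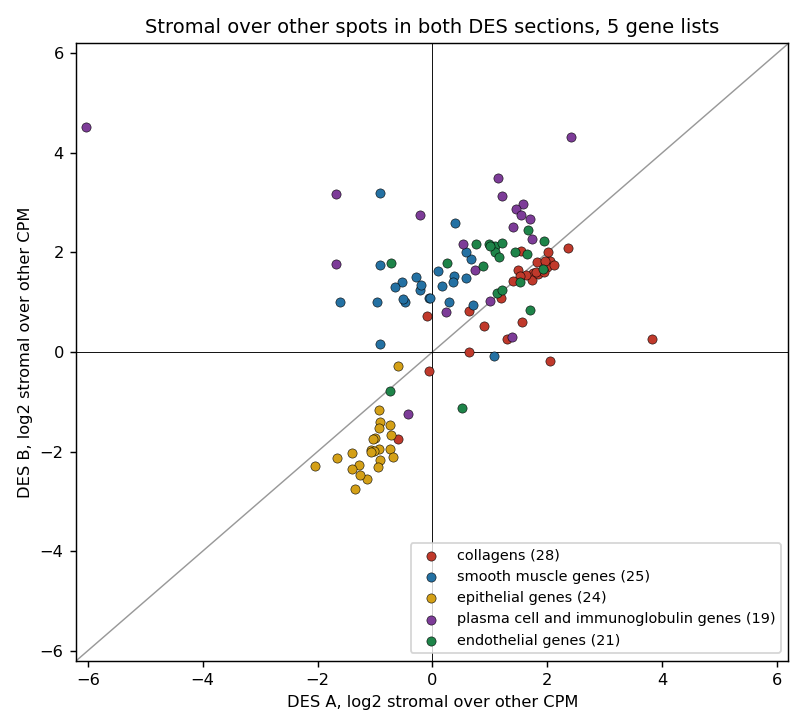
Log2 ratio of stromal to other spots in DES A (horizontal) against DES B (vertical) for collagens, smooth muscle, epithelial, plasma cell and endothelial genes, each point 1 gene, with 0.5 added to each count and a grey line where the sections are equal. Collagens lie near the line (medians 1.68 and 1.54), whereas smooth muscle genes (medians -0.07 and 1.32) and plasma cell genes (2.67 in DES B) lie above it and epithelial genes (-1.01 and -2.00) below it.

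Epithelial genes were the counterpart. Of 24 tested, 0 were called higher and 23 lower (median -1.36), and of 25 basal and squamous genes 0 and 18 (median -0.98; 10 lower without DES B). Ltf (lactoferrin), an estrogen-induced secretion of uterine epithelium, was at 1421 against 4499 CPM in DES A and 326 against 1425 in DES B (-1.79 ± 0.17). Krt5, a keratin of basal cells, was at 3853 against 5454 and 1163 against 3649 (-0.98 ± 0.19). The stromal spots still held much Krt5 in DES A, and both epithelial and basal genes were further below the other spots in DES B than in DES A, with epithelial medians of -2.00 and -1.01 and basal medians of -1.65 and -0.65.

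For housekeeping groups the background was again the 7.16% of all genes called higher and 5.66% called lower. Of 79 cytosolic ribosomal protein genes 4 were called higher and 0 lower (median 0.11), and none by DESeq2. Of 86 oxidative phosphorylation genes 2 were called higher and 3 lower (median -0.03), and of 21 glycolysis genes 3 and 1. Neither edgeR nor DESeq2 called any of 20 proliferation genes or of 7 mast cell genes (4 and 2 of them at an unadjusted p under 0.05 in edgeR). Of all 13542 genes tested, 3335 were under that unadjusted p. Of 16 immediate early genes 1 was called higher and 1 lower. Antioxidant genes were mixed, with 6 of 39 called higher and 11 lower (median -0.12), and 5 and 3 both without DES B and by DESeq2. Gpx1, the cytosolic glutathione peroxidase, was at 2886 against 3504 CPM in DES A and 3043 against 5956 in DES B (-0.54 ± 0.16), while the secreted genes Gpx3 (1.36 ± 0.20) and Sod3 (1.79 ± 0.33) were higher. Of 9 mesothelial genes 2 were called higher and 2 lower, of 8 adipocyte genes 1 and 1, and of 3 eosinophil genes 1 and 1.

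Among genes with at least 20 CPM in the region where they were higher, Coch (cochlin), a secreted matrix protein, had the largest difference in favour of the stromal spots (3.77 ± 0.57). It was at 41.4 against 3.95 CPM in DES A on 42 UMIs and at 11.5 against 0.210 in DES B on 4 UMIs (95% interval 3.15 to 29.6 CPM). The other 14 of the 15 highest were Ighg2c, Iglv1, Prg2, Ly6c2, Cadm3, Dpep1, Cpz, Irf4, Crabp1, Mitf, Sema3g, Igkc, Pth1r and Aspg. Of these, Cpz, a carboxypeptidase, was at 77.8 and 40.4 CPM in the stromal spots of DES A and DES B, and Mitf, a transcription factor, at 46.3 and 40.4 CPM. The 15 lowest were Kap, Kcne3, Cxcl5, Muc16, Tmc5, Sprr2a3, Arg1, Slc39a8, Pag1, Itln1, Cyp4a12a, Lypd8, Ppp2r2b, Aoc1 and Cxcl15. Of these, Arg1, the arginase, was at 36.4 against 143 CPM in DES A and 8.66 against 140.0 in DES B (-2.34 ± 0.29), and Muc16, a surface mucin, was at 2.95 against 9.75 and 0 against 32.4 (-2.72 ± 0.73).

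Set against the muscle-rich spots alone, 7 of 13275 genes were called higher (0.0527%) and 6 lower (0.0452%) in the DES stromal spots, with 909 at an unadjusted p under 0.05. The genes called higher were Crabp1 (3.39 ± 0.39), Dio2 (1.90 ± 0.22), Mfap5 (1.70 ± 0.26), Tmem119 (1.63 ± 0.23), Wnt5a (1.63 ± 0.23), Col6a4 (1.59 ± 0.26) and Mmp11 (1.56 ± 0.25). Dio2 was at 138 CPM in the muscle-rich spots of DES A and 134 in those of DES B, and Tmem119, a membrane protein of mesenchymal and bone-forming cells, was at 425 and 162 CPM in stromal against 102 and 70.3 in muscle-rich spots. The genes called lower were Cfd (-4.35 ± 0.44), Car3 (-4.35 ± 0.74), Clec3b (-2.84 ± 0.49), Synm (-2.84 ± 0.47), C3 (-1.35 ± 0.21) and Msrb1 (-1.29 ± 0.21). Cfd (adipsin) and Car3 are abundant in adipocytes: Cfd was at 14.8 and 0 CPM in stromal against 277 and 36.6 in muscle-rich spots. These values rest on few spots. The adipocyte markers Adipoq, Cfd, Plin1 and Cidec summed to 17917 CPM in Cluster 9 of DES A (9 spots) and 970 in Cluster 9 of DES B (47 spots). A UMI of them was found in 3.37% and 1.61% of muscle-rich spots of DES A and DES B. Of the 211 stromal spots of DES A, 210 held none. Synm (synemin), an intermediate filament protein of muscle, was at 9.85 and 14.4 against 99.0 and 53.0 CPM. Without DES B the counts were 29 higher and 78 lower, without DES A they were 0 and 0 (631 genes at an unadjusted p under 0.05 in edgeR), and DESeq2 with both sections called 37 and 24. Smooth muscle genes show the change: 1 of the 25 smooth muscle genes was called lower than in muscle-rich spots with both sections, and 18 without DES B. Of the 969 genes called higher against all other spots and tested here, 536 (55.3%) were above the muscle-rich spots in both sections. The other spots include the muscle-rich spots, so the choice of these genes raises that share. The share over all genes tested was not taken, so the 55.3% is description only.

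Gene lists that were above the other spots as a whole stood at different levels against muscle-rich spots. The median log2 difference of the stromal markers was 1.09 against muscle-rich and 2.32 against epithelium-rich spots, and that of collagens 0.83 and 2.11. Without DES A the first of these was 0.57 for the stromal markers and 0.57 for collagens, and without DES B 1.46 and 1.06. Small leucine-rich proteoglycans had medians of 0.01 and 2.13, and endothelial genes of -0.44 and 2.79. Against muscle-rich spots the endothelial median was -0.60 in DES A and 0.12 in DES B. Of the adhesive matrix gene fibronectin (Fn1), the level was 638 and 661 CPM in stromal, 1536 and 936 in muscle-rich and 213 and 118 in epithelium-rich spots. Against the epithelium-rich spots 1369 genes were called higher (10.3%) and 899 lower (6.77%), with 21 of the collagens, 20 of the endothelial genes (11 without DES B) and 20 of the smooth muscle genes higher. Without DES A the counts against epithelium-rich spots were 733 and 495, and without DES B 474 and 122.

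**Figure D4:**
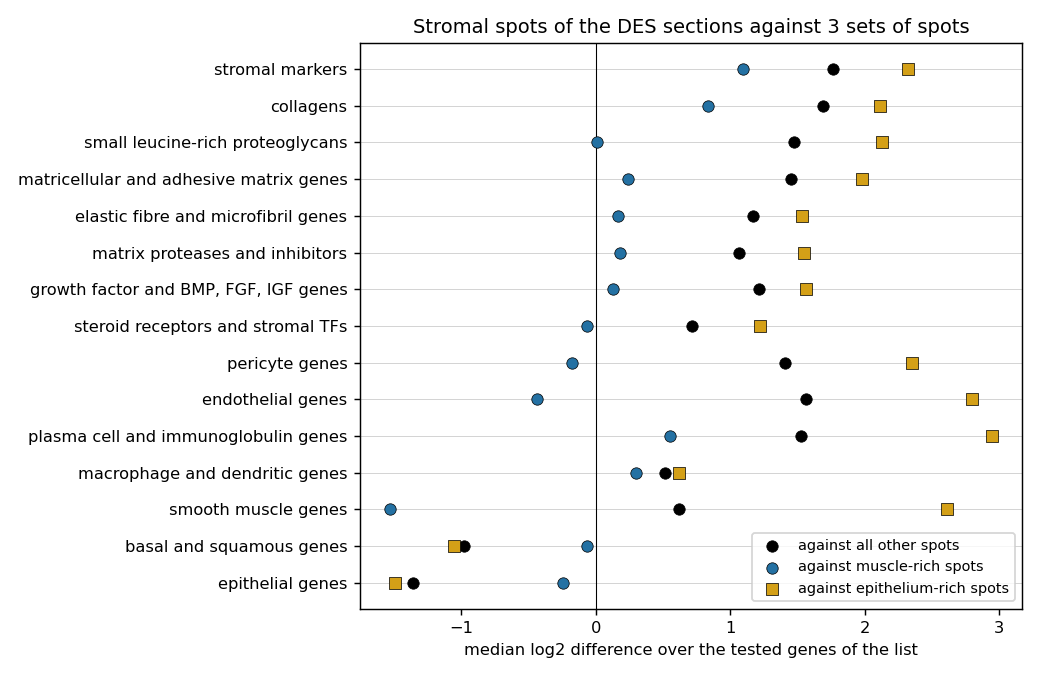
Median log2 difference of the DES stromal spots from all other, muscle-rich and epithelium-rich spots (horizontal) for 15 gene lists (vertical), each point 1 median over the genes of a list tested in edgeR. Stromal markers and collagens lie above 0 in each comparison (collagens 1.69, 0.83 and 2.11), proteoglycans fall to 0.01 against muscle-rich spots, and smooth muscle genes run from -1.53 against muscle-rich to 2.61 against epithelium-rich spots.

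The enrichment of stromal over other spots was then compared between the DES and the CO sections, in which 876 genes were called higher in stromal spots (6.47%) and 745 lower (5.5%). The difference was called for 350 genes with a higher enrichment in DES (2.58%) and 106 with a lower one (0.783%), the p-values carrying the same reserve about the clusters. The other spots differed in make-up between the groups. Muscle-rich clusters held 30.8% and 37.2% of all UMIs in CO A and CO B, and 15.7% and 20.4% in DES A and DES B. A shift in enrichment can thus come from the stromal spots, from the other spots or from both, and is no measure of the stromal level alone. Of the 970 genes called higher in DES stroma, 387 (39.9%) were also called higher in CO stroma, which is 44.2% of the 876, and 77 were called lower in CO stroma. Without DES A the counts of the difference were 430 and 216, and without CO B 273 and 55.

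Smooth muscle genes had the largest median shift of the 31 lists (4.50 against -0.02 over all genes tested). Acta2 was at 235 CPM in stromal against 4505 in other spots of CO A and 128 against 4706 in CO B, whereas both DES sections had stromal levels above their other spots. The difference in log2 enrichment was 5.61 ± 0.32 (adjusted p = 1.98e-13, edgeR). Of the 25 smooth muscle genes 21 were called with a higher enrichment in DES and 0 with a lower one. The per-section medians were -2.89 and -3.27 in CO A and CO B against -0.07 and 1.32 in DES A and DES B, so the CO and DES sections did not overlap. Smooth muscle markers summed to 743 CPM in the stromal cluster of CO A and 633 in that of CO B, against 2562 and 7829 in DES A and DES B, and the part of muscle in or beside the spots in this and the following shifts was not tested. Muscle-rich spots of the CO sections held 13731 and 11348 CPM of Acta2, against 5618 and 4846 in the DES sections.

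Small leucine-rich proteoglycans shifted in the same direction: 6 of 11 were called with a higher enrichment in DES and 0 lower (median 1.67). Prelp, which anchors basement membranes to connective tissue, was at 1.79 against 39.6 CPM in CO A and 21.7 against 113 in CO B, but at 211 against 82.6 in DES A and 193 against 69.1 in DES B (4.20 ± 0.38, adjusted p = 1.74e-09, edgeR). The stromal value of Prelp in CO A rests on very few of the 558480 UMIs there. Lum was at 405 against 466 and 390.2 against 486 CPM in CO A and CO B, below the other spots, and above them in both DES sections (2.02 ± 0.25, adjusted p = 1.94e-06, edgeR). Decorin was enriched in all 4 sections, at 3230.2 against 1036 and 3038 against 1318 CPM in CO, and its difference was 0.20 ± 0.24. Among CO single cells, Prelp was highest in myocytes (85 cells) at 34.7 CPM against 10.7 in stromal cells.

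Collagens had 8 of 28 called with a higher enrichment in DES and 0 lower (median 0.80). Col1a1 was at 1565 against 771 CPM in CO A and 1606 against 1112 in CO B, so that it was above the other spots in each section but by less than in DES (1.30 ± 0.24, adjusted p = 0.000484, edgeR). Col6a3 (1.66 ± 0.29, 1733 against 1072 and 469 against 697 CPM in CO) was called too. Its stromal levels in DES lay between those of CO A and CO B, while its levels in the other spots were lower in both DES sections. Its partner chains Col6a1 (0.51 ± 0.25) and Col6a2 (0.45 ± 0.24), as well as Col6a4 (0.27 ± 0.24), Mfap5 (0.08 ± 0.25) and Dpt (0.61 ± 0.26), were not called. Of 25 matricellular and adhesive matrix genes 7 were called with a higher and 2 with a lower enrichment, the latter Spp1 (-2.47 ± 0.44) and Tgfbi (-1.60 ± 0.31). Tnc, one of the 7, was at 5.37 against 38.7 CPM in CO A and 5.42 against 16.0 in CO B, the reverse of the DES sections (3.85 ± 0.54, adjusted p = 1.29e-05, edgeR). Its CO stromal values rest on a handful of UMIs, as the stromal spots of CO A and CO B held 558480 and 922552 UMIs in all. Of signals, Igf1 was at 227 against 165 and 32.5 against 57.7 CPM in CO (1.84 ± 0.33, adjusted p = 0.000461, edgeR), and Inhbb (1.54 ± 0.31), Pdgfc (2.38 ± 0.37) and Sfrp4 (1.89 ± 0.38) were called as well. Of 34 Wnt ligands, R-spondins, antagonists and targets 5 were called with a higher and 1 with a lower enrichment (2 and 0 without CO B, 2 and 1 by DESeq2), and of 46 growth factor genes 7 and 0.

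Some macrophage genes were less enriched in the DES stromal spots, while the sum of 4 macrophage markers was above the other spots in each section. Lyz2 (lysozyme) was at 346 against 110.1 CPM in CO A and 715 against 285 in CO B, above the other spots, and at 1242 against 1532 in DES A and 580.2 against 743 in DES B, below them (-1.67 ± 0.24, adjusted p = 2.12e-05, edgeR). The stromal level of Lyz2 itself was highest in DES A and lowest in CO A, and the other spots of both DES sections held more Lyz2 than those of both CO sections. Of 29 macrophage and dendritic genes 0 were called with a higher and 8 with a lower enrichment in DES (median -0.63), 0 and 11 without DES A, and 0 and 5 by DESeq2. Cd68, Adgre1, C1qa and Csf1r summed to 363 against 206 CPM in CO A, 563 against 337 in CO B, 1012 against 503 in DES A and 661 against 406 in DES B. Gzma, a granzyme of NK cells and the like, was at 51.9 against 8.12 and 40.1 against 7.91 CPM in CO, and at 0.985 against 0.741 and 2.89 against 3.99 in DES, where it rested on 1 and 1 stromal UMIs. Of 17 T and NK cell genes 1 was called lower (median -1.43), and 0 without any 1 of CO B, DES A or DES B.

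**Figure D5:**
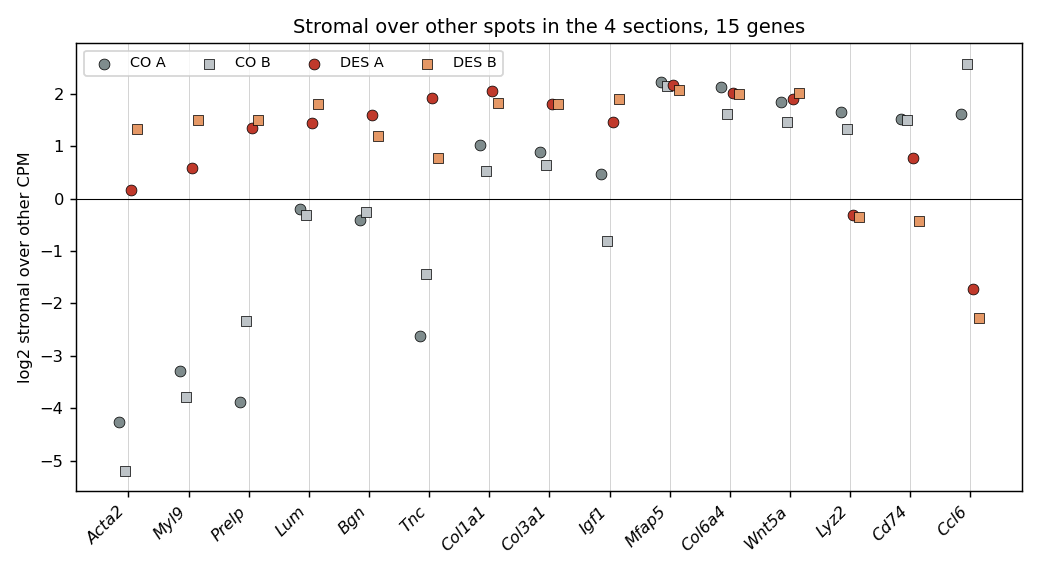
Log2 ratio of stromal to other spots (vertical, 0.5 added to each count) in CO A, CO B, DES A and DES B for 15 genes, each point 1 section. Acta2, Myl9, Prelp and Tnc lie below 0 in both CO sections and higher in both DES sections (Acta2 at -4.26 and -5.20 against 0.16 and 1.32), Mfap5 and Col6a4 lie above 0 in all 4, and Lyz2 and Ccl6 lie above 0 in CO and below 0 in DES.

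The single-cell libraries gave a readout outside the sections for the cell types the genes belong to, as a description over 1 CO library of 2 pooled mice. Of its 32387 cells, 20134 carried no type in the deposited annotation and were not used, and no doublet caller was run here on the typed cells, the methods of the study stating that doublets had been removed. The CO library held 1326 cells that the authors named stromal, whereas the DES library (4 pooled mice) held 1 such cell, so no DES stromal cells could be compared. Of the 970 genes called higher in the DES stromal spots, 261 (26.9%) had their highest CPM in CO stromal cells, against 6.44% of all genes tested. A further 144 (14.8%) had it in endothelial cells, 128 (13.2%) in pericytes, 121 (12.5%) in mesothelial cells, 99 (10.2%) in myocytes and 4 (0.412%) in epithelial cells. Over all genes tested these shares were 15.3%, 11.9%, 9.70%, 6.46% and 11.8%, so that the endothelial and pericyte shares lay near those of all genes. The myocyte and pericyte groups held only 85 and 75 cells, so their levels are less certain. Of the 766 genes called lower, 447 (58.4%) had it in epithelial cells, against 11.8% of all genes tested. Col6a4 was at 2077 CPM in CO stromal, 12.5 in mesothelial and 9.63 in epithelial cells, and Dio2 at 1165, 6.03 and 4.63. Decorin and lumican, which were high in muscle-rich spots as well, had their highest level in mesothelial cells (Dcn at 17675 CPM against 8859 in stromal cells).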

How the data were processed

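Visium sections of 2 CO and 2 DES uteri, each from 1 mouse, were used, with 1 CO and 1 DES single-cell library as a readout of cell types. Per the labels and methods, reads were aligned to mm10 (GRCm38) and counted as UMIs by Space Ranger 1.2.2 for the sections and Cell Ranger 3.0.1 for the cells, and the counts deposited by the authors carry no normalization. Space Ranger also divided each section into 10 clusters from the same counts. The counts of all 6199 spots entered the sums of stromal and other spots. The 2 libraries shared 180 cell barcodes among 32387 CO and 16312 DES cells.

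UMIs were summed per region and section. A cluster was called muscle-rich where its CPM of Myh11, Acta2, Des and Cnn1 exceeded that of its section and its CPM of Krt8, Krt18, Epcam, Cdh1 and Wfdc2 did not, and epithelium-rich in the reverse case. Sums were compared with edgeR 4.0.16 (TMM factors, filterByExpr, quasi-likelihood test, Benjamini-Hochberg adjustment at 0.05 over all genes tested), with section as block, since the regions of a section come from 1 mouse, and with all 4 sections sharing the spread. Ratios within a section had 0.5 added to each count. With 2 sections a group no exact test over sections could pass 0.05, and p-values rest on the spread pooled over genes. Exact Poisson intervals at 95% cover counting error only. Alternatives were DESeq2 1.42.0, its size factors, no immunoglobulin genes, no filter, DES sections only, no block, each section left out and spots of at least 2000 UMIs.

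The spots, 31 gene lists and tests were chosen with earlier results of these data known. Genes were named by a rule (the markers, the 15 highest and 15 lowest differences at 20 CPM or more, up to 4 called members of each list and up to 2 whose sections disagree, and the 5 highest and 5 lowest differences between DES and CO), and other list members and genes called against muscle-rich spots or ranking 1 of 10 clusters were named after their values were seen. Gene coordinates are from GENCODE on GRCm38. Results on 1 gene of the lists are not reported here.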

Additional observations from a re-analysis of the deposited data

Results flagged for a closer look

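The results below were marked because the stromal enrichment differed between the DES and the CO sections in edgeR's test of that difference. For Col1a1 the difference in log2 enrichment was 1.30 (adjusted p = 0.000484), as described above. The other 10 are the genes with the largest shifts among called genes whose enrichment in the lower DES section exceeded that in the higher CO section, or the reverse. Dpp6 was at 1.79 against 34.5 CPM in stromal and other spots of CO A, 0 against 24.8 in CO B, 12.8 against 14.1 in DES A and 66.4 against 19.9 in DES B (difference 6.36, adjusted p = 2.57e-05 in edgeR). Nptx2 was at 3.58 against 72.3, 1.08 against 74.8, 10.8 against 16.0 and 43.3 against 13.3 CPM in the same order (5.79, adjusted p = 7.18e-06 in edgeR). Optc (6.53, adjusted p = 4.56e-05 in edgeR) and Rprm (6.01, adjusted p = 0.00297 in edgeR) had the same form, with 0 and 1 stromal UMIs of Optc in CO A and CO B and 1 and 0 of Rprm. These 4 genes were nearly empty in the stromal spots of both CO sections. Among the CO single cells they were highest in myocytes, a group of only 85 cells. They moved with the smooth muscle genes, whose median difference was 4.50 and whose part in this was not tested. Pcsk1n (8.63, adjusted p = 0.0191 in edgeR) had 0 stromal UMIs in both CO sections, so the size of its fitted difference depends on the prior count and is no bound. It was at 13.8 against 10.5 CPM in DES A and 31.8 against 15.2 in DES B.

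Among genes with a lower enrichment in DES, Ccl6, a myeloid chemokine, was at 48.3 against 16.0 and 183 against 30.8 CPM in CO A and CO B and at 69.9 against 233 and 54.8 against 273 in DES A and DES B (-4.03, adjusted p = 6.51e-10 in edgeR). Bcl2a1b differed by -3.10 (adjusted p = 0.00272 in edgeR), on 18 and 0 stromal UMIs in DES A and DES B. The tight junction gene Cldn1 differed by -4.08 (adjusted p = 0.000804 in edgeR), at 9.85 against 27.8 and 2.89 against 25.0 CPM in the DES sections. Cplx2 (-4.16, adjusted p = 0.0257 in edgeR) and the interferon-induced Ifit1 (-3.45, adjusted p = 0.0113 in edgeR) rested on 0 and 1, and 2 and 0, stromal UMIs in DES A and DES B.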

How the results depend on the processing

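With the section as block, 1736 genes were called between stromal and other spots, 13 against muscle-rich spots, 2268 against epithelium-rich spots and 456 for the difference between DES and CO. With no replicate block these counts were 51, 0, 1025 and 1, regions of 1 section sharing a mouse and a slide area. DESeq2 called 879 of 9866, 61 of 6069, 1905 of 13275 and 207 of 10391 genes to which it gave an adjusted p, where edgeR tested 13542, 13275, 13275 and 13542. With no filter on low counts 272 genes were called against muscle-rich spots, and 3 with the DES sections only. The difference between DES and CO could not be fitted with the DES sections only. Leaving out each section in turn, the counts ran from 905 to 1868 against other spots, 0 to 107 against muscle-rich, 596 to 2575 against epithelium-rich spots and 328 to 646 for the difference, with the lowest values without DES B, DES A, DES B and CO B. In the same way the log2 difference of Col6a5 ran from -5.60 to 3.87 against other and -4.16 to 3.76 against epithelium-rich spots, that of S100a8 from -2.48 to 0.20, that of S100a9 from -2.81 to 0.0598 and that of Cfd against epithelium-rich spots from -2.13 to 4.90. Each of these changed direction without DES A, and the cause was not tested. Col6a5 and Cfd had 0 stromal UMIs in DES B, so the size of their fitted differences without DES A depends on the prior count and is no bound. Under DESeq2's size factors, without immunoglobulin genes and with spots of at least 2000 UMIs, each count was within 1.5 times the count given first. Of 171 genes named by the rule, 145 kept direction and side of the threshold against other spots under DESeq2, 130 without DES A and 129 without DES B. With no replicate block, 59 of these 171 genes kept direction and side of the threshold against other spots. Depth limits the DES B stroma, whose 346412 UMIs leave genes under about 10 CPM with a handful of UMIs.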
